A study of Mus musculus with 12 samples.

Results

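The changes between day 1 and day 2 after the mitogen TCPOBOP were measured in mouse liver, with and without the gene Yap1 in hepatocytes, over 8 of the 12 arrays of the study. The 8 arrays are all those of the 2 later days: 3 wild-type (WT) and 3 YAP knockout (YAP KO) livers at day 2, and 1 pooled RNA sample of each genotype at day 1. All 14102 genes that passed a filter on dim probe sets were compared, and the 4 arrays of day 0 served as the reference level. The mice were females of 8 to 12 weeks, all of a YAP-floxed line. The WT mice received an AAV8 virus carrying eGFP under the hepatocyte promoter TBG, and the YAP KO mice received AAV8-TBG-Cre, so the WT controls also carried the floxed alleles and a virus. TCPOBOP was given by gavage at 3 mg/kg, 10 days after the virus. Day 0 livers, 2 of each genotype, had the virus but no TCPOBOP. The deletion is limited to cells in which TBG drives Cre, so other liver cells kept Yap1.

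TCPOBOP is a synthetic agonist of the constitutive androstane receptor (CAR, Nr1i3) in the mouse. CAR switches on drug metabolism genes such as Cyp2b10, and in mouse liver it also makes hepatocytes enlarge and divide without injury. YAP is a transcriptional coactivator of the Hippo pathway that promotes liver growth. Cells entering a growth phase raise ribosome production, protein folding capacity and then the machinery of DNA replication and mitosis. Heat shock proteins are folding helpers of the cytosol, and ER chaperones do the same for secreted proteins. The liver also runs a daily clock, in which REV-ERB alpha (Nr1d1), REV-ERB beta (Nr1d2) and the output factor Dbp cycle strongly.

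Each day 1 value is 1 array of a pool, and the number of livers in a pool was not given in the sources used here. Day and pooling therefore cannot be told apart: day 1 is always a pool and day 2 always a single sample. No untreated liver was sampled after day 0, and the hour of harvest was not given. Values below are normalized signals, the authors' array signals after quantile normalization across the 12 arrays. Differences are on the log2(signal + 16) scale, day 2 minus day 1, with the standard error (SE) of a limma fit of day and genotype over the 8 arrays. A gene was called, and is said to have risen or fallen, at an adjusted p under 0.05 over all genes tested. Changes within 1 genotype rest on 1 pool and are given as values with no test. Nothing in the labels states that the replicates were separate animals, so the p-values measure the spread between these samples. That spread comes from the day 2 replicates and from how far the changes of the genotypes differ. No genotype had a second day 1 array, so the test assumes that a pool varies like a single day 2 sample.

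All 12 arrays had the same trimmed mean signal, 499.9, and medians of 232 to 277. The 3 YAP KO day 2 arrays had lower maximum signals (48217 to 67457) than the 3 WT day 2 arrays (103216 to 116918), before quantile normalization. Yap1 itself separated the genotypes at each day. Its normalized signal was 1216 and 1315 in WT at day 0, 1010.0 on the WT pool and 1219, 1063 and 1296 at day 2. Its YAP KO signals were 645 and 581, then 472, then 548, 511 and 777. No YAP KO array reached a WT array at the same day, and the difference between day 2 and day 1 was 0.29 ± 0.18 (SE; adjusted p = 0.467). The other kept probe set of Yap1 was at 1.54. The samples are labelled as liver tissue, and the hepatocyte gene Alb ranged from 61617 to 77030 on the 12 arrays.

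Between day 1 and day 2, 223 genes changed, 1.58% of those tested. Of these, 146 rose (1.04%) and 77 fell (0.546%). By limma, 43 rose and 18 fell by 2-fold or more. An unadjusted p under 0.05 was reached by 2351 genes. The median difference over all genes was near 0 (0.02 over both genotypes, -0.01 in WT, 0.04 in YAP KO). The count depended on single arrays: it was 114, 126 and 107 without WT day 2 replicates 1, 2 and 3. It was 151, 85 and 121 without YAP KO day 2 replicates 1, 2 and 3. Without a pool the fit keeps 1 day 1 array, so its difference is the other genotype's change from that 1 pool. Calls kept or lost without a pool, here and below, therefore do not check the result over both genotypes. Without quantile normalization 91 genes rose and 91 fell, so the share of rises was 50% and not the 65.5% with it. With array medians set equal it was 50.6%, and with the probe sets of a gene averaged 53.8%. By limma without trend and robust 12 genes were called. Of 95 called genes examined singly, most of those named below among them, 86 lost the call there, 49 with array medians set equal and 39 with probe sets averaged.

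Taken alone, each genotype had more genes past 2-fold, with no test. In WT 654 genes were at least 2-fold higher than the pool (4.64%) and 480 at least 2-fold lower (3.4%). In YAP KO the counts were 747 higher (5.3%) and 649 lower (4.6%). There were 96 genes that were 2-fold higher in both genotypes (0.681%) and 84 that were 2-fold lower in both (0.596%), while 135 went past 2-fold in opposite directions (0.957%). Across the 14102 genes, which are not independent, the changes in WT and YAP KO had a Pearson correlation of 0.09. The genotypes share no array in that comparison, and each change rests on its own single pool. All 6 day 2 arrays lay above both pools for 1205 genes (8.54%) and below both for 1058 (7.5%).

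**Figure D1:**
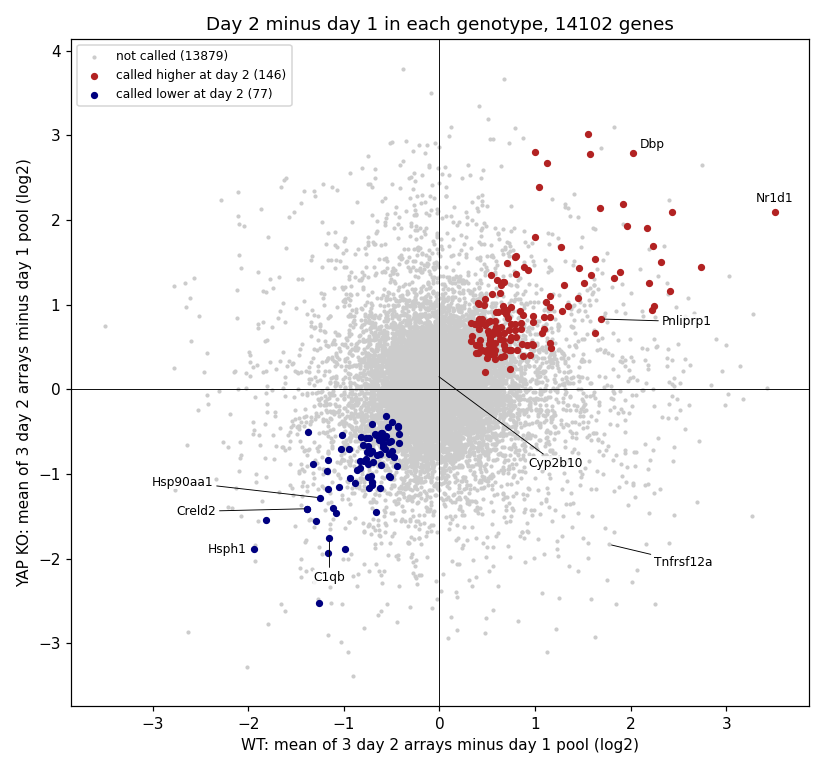
Day 2 minus day 1 for each of the 14102 genes in WT (horizontal axis, log2) and YAP KO (vertical axis, log2), each the mean of 3 day 2 arrays minus 1 pool. Red points are the 146 genes called higher and blue points the 77 called lower. The called genes lie in the quadrants where both genotypes moved the same way. The test largely sets this, because it takes a difference between the genotypes' changes as spread. Tnfrsf12a lies at 1.77 in WT and -1.83 in YAP KO.

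The time courses of the called genes were sorted by how far day 1 stood from day 0. A peak was a called fall of at least 0.5 in each genotype in a gene at least 1 above day 0 on both pools, and a trough was the mirror image. There were 22 peaks (0.156% of genes tested) and 26 troughs (0.184%). No gene met the rule for a late rise or a late fall, which asked for a call, a day 1 level within 0.5 of day 0 and a 2-fold difference from day 1 to day 2 in both genotypes. A further 3 genes kept rising and 1 kept falling. The peak genes stood at a median of 1.83 above day 0 on the WT pool and 1.75 on the YAP KO pool. At day 2 they stood 0.88 above day 0 in WT and 0.31 in YAP KO, and 7 of the 22 were back within 0.5 of day 0 in both genotypes. The trough genes went from -1.76 and -1.55 at day 1 to -0.4 and -0.16 at day 2, and 13 of the 26 were back. Over all genes, day 2 was above day 0 in 1118 (7.93%) and below it in 1029 (7.3%) by limma with the genotypes averaged, 2147 in all (15.2%). Of the peak genes 13 still differed from day 0 in that test, and of the trough genes 8. Both steps use the same day 1 pools, so an array error on a pool moves them in opposite directions. The counts were 14 peaks without WT day 2 replicate 2, YAP KO day 2 replicate 2 or YAP KO day 2 replicate 3, and 14 to 16 troughs without WT day 2 replicate 1, 2 or 3 or YAP KO day 2 replicate 1 or 2.

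Return toward day 0 was also read across genotypes, where no array is shared. Among 921 genes at least 2-fold above day 0 on the WT pool, 23% were at least 2-fold lower at day 2 than at day 1 in YAP KO, against 4.6% of all genes. Their median in YAP KO was 0.84 above day 0 at day 1 and 0.33 above it at day 2. Among 937 genes at least 2-fold below day 0 on the WT pool, 14.7% were at least 2-fold higher at day 2 in YAP KO, against 5.3% of all genes. Chosen on the YAP KO pool and read in WT, 10.4% of 941 raised genes came down 2-fold (3.4% of all genes) and 12.7% of 853 lowered genes came up (4.64%). The share that moved 2-fold further from day 0 was also above that of all genes in these 4 readings: 6.08% against 5.3% and 6.72% against 4.6% read in YAP KO, and 8.18% against 4.64% and 7.85% against 3.4% read in WT. The median changes from day 1 to day 2 were -0.42 and 0.26 read in YAP KO and -0.14 and 0.05 read in WT.

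Heat shock proteins with their cochaperones, of the cytosol and, for HSP60 and HSP10, of mitochondria, were the list with the largest share of called genes. Of 17 tested members 7 fell and none rose, 41.2% against 0.546% of all genes, and the list's median was -0.72 against 0.02. The medians were -0.69 in WT and -0.73 in YAP KO. The list had stood at a median of 1.1 above day 0 on the WT pool and 1.2 above it on the YAP KO pool, and stood at 0.27 and 0.5 at day 2. The list was chosen with earlier results of these data known, so its count is a description.

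Hsph1 encodes HSP110, an exchange factor and helper of HSP70. Its normalized signal was 635 and 277 in WT at day 0, 1996 on the WT pool and 474, 599 and 466 at day 2. The YAP KO arrays read 713 and 703, then 3317, then 751, 970.3 and 976. Both pools stood far above every other array of their genotype, and the day 2 livers overlapped or neared the day 0 range. The difference was -1.91 ± 0.16 (SE; 3.76-fold lower; adjusted p = 0.00259). Hsp90aa1, the inducible cytosolic HSP90, had signals of 1812 and 1840.5, then 11590.2, then 5831, 4912 and 3993 in WT. The YAP KO signals were 2377 and 3068, then 12744, then 5143, 5249.5 and 5324. It fell by 2.41-fold (-1.27 ± 0.13; SE; adjusted p = 0.00269) yet all 6 day 2 arrays stayed above all 4 day 0 arrays. Its day 2 level was still 1.4 above day 0 in WT and 0.95 in YAP KO.

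Chordc1, Hspa8, Ahsa1, Dnaja1 and Hspe1 were the other called members. Chordc1, an HSP90 cochaperone, was at 736 and 574 in WT at day 0, 1805 on the pool and 729, 752 and 709.6 at day 2. YAP KO arrays gave 652 and 798, then 2298, then 792, 731 and 809, a difference over both genotypes of -1.42 ± 0.13 (SE; adjusted p = 0.00259). The day 2 arrays had come back into or next to the day 0 range. Hspa8, the constitutive HSP70, went from 20181 on the WT pool to 6413, 9212 and 12294 and from 23116 on the YAP KO pool to 8602, 10884 and 11317. That is -1.17 ± 0.2 (SE; adjusted p = 0.0214), and the day 0 arrays spanned 7532 to 11568. Ahsa1, an activator of the HSP90 ATPase, fell by 0.77 (SE 0.11; adjusted p = 0.0111), and Dnaja1, an HSP40, fell by 0.72 (SE 0.09; adjusted p = 0.00785). Hspe1, the mitochondrial HSP10, fell by 0.52 (SE 0.09; adjusted p = 0.0193) while its partner Hspd1, HSP60, was at -0.11 ± 0.09 (SE; adjusted p = 0.586).

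Some of these calls rested on single arrays. Hsph1, Hsp90aa1, Chordc1 and Dnaja1 kept theirs whichever 1 of the 6 day 2 arrays was left out. Hspa8 lost its call without YAP KO day 2 replicate 2 or either pool, at differences of -1.28 to -1.06 over all leave-outs. Ahsa1 lost it without the YAP KO pool (-0.69), and Hspe1 without that pool or YAP KO day 2 replicate 2 (-0.63 to -0.42 over all leave-outs). The list had 5 called members without YAP KO day 2 replicate 2 or without the YAP KO pool, and 7 or 8 without any other array. It had 2 by limma without trend and robust and 5 with probe sets averaged, where Ahsa1 (-0.46) and Hspe1 (-0.51) were not called. The 4 kept probe sets of Hsp90aa1 ranged from -1.27 to -0.24 and the 4 of Hspa8 from -2.6 to -0.25.

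The stress-inducible HSP70 was not called, nor was the HSP40 Dnajb1 (-0.75 ± 0.17; SE; adjusted p = 0.0625). Hspa1b was at 488 and 714 in WT at day 0, 4685 on the pool and 552, 549 and 993 at day 2. In YAP KO it was at 698 and 1130.5, then 5084, then 4484, 7264 and 6734. All 3 WT livers were near their day 0 level and all 3 YAP KO livers near their day 1 level. The difference between the genotypes' changes was 3.02 ± 0.55 (SE; adjusted p = 0.0841), which did not pass the test. Hspa1a, a nearly identical copy whose signal can mix with that of Hspa1b, had changes of -2.57 in WT and 1.31 in YAP KO.

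**Figure D2:**
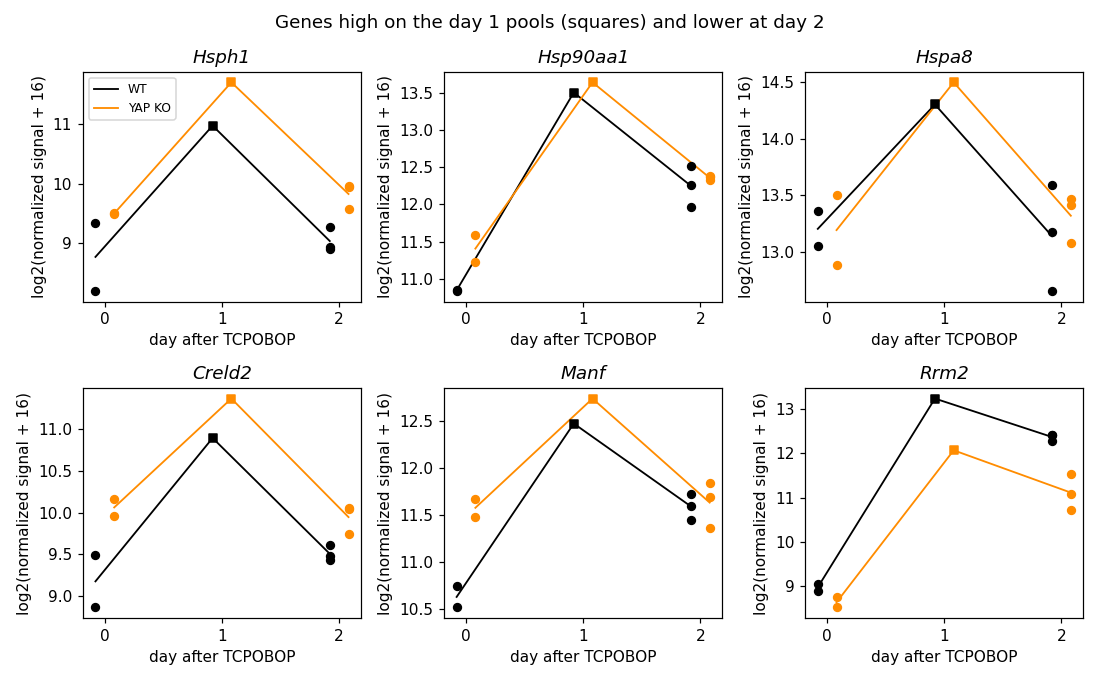
Normalized signals, as log2(signal + 16), of 6 genes that fell from day 1 to day 2, by day after TCPOBOP. Points are arrays, squares the day 1 pools, lines join means; WT is black and YAP KO orange. Hsph1, Hspa8 and Creld2 return to about their day 0 range, while Hsp90aa1 and Rrm2 stay above it in both genotypes.

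Within the 26 tested ER chaperones and unfolded protein response genes, 4 fell and none rose (15.4% against 0.546%), with a list median of -0.13. The 4 were Creld2, Manf, Hsp90b1 and Calr, all folding or stress proteins of the ER. The promoters of Creld2, Hsp90b1 and Calr are shown because each holds the ER stress response element, a motif through which ATF6 is known to act; Manf has no window in the table used. The motif, CCAAT, then 9 bases of any kind, then CCACG, on either strand, is in the 250 bases before a start in 17 of 11293 tested genes with a window (0.151%) and in 3 of 56 genes that fell (5.36%). Of the 126 genes that rose and have a window, 0 hold it. The motif was chosen after the values were seen, and a match is a description of these letters only. Sequences are from RefSeq, build GRCm38.p6, read along the gene's strand and ending at the base before the start, with the motif in capitals.
Creld2 at chr15:88819396-88819645, plus strand: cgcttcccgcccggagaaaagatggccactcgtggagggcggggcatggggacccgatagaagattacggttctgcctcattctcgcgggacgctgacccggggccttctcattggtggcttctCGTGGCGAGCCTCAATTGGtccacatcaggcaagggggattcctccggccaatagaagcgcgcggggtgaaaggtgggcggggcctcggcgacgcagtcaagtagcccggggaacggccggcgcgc
Hsp90b1 at chr10:86705445-86705694, minus strand: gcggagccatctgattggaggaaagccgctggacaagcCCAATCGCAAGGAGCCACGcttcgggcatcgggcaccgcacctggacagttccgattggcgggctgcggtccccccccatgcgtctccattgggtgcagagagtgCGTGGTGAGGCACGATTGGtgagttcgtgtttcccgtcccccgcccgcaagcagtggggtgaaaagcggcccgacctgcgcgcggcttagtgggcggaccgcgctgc
Calr at chr8:84846932-84847181, minus strand: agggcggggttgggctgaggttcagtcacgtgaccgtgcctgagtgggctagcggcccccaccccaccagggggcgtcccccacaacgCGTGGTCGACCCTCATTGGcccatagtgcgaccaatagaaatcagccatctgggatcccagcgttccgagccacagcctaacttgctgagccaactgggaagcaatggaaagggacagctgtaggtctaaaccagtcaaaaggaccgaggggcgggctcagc

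Creld2 holds 1 match, beginning 126 bases before the start, Calr 1 at 162 bases and Hsp90b1 2, at 212 and 107 bases. Creld2 was at 704 and 452 in WT at day 0, 1879.5 on the pool and 677, 697 and 766 at day 2. Its YAP KO signals were 1130.2 and 979, then 2609.5, then 842, 1046 and 1037. The pools stood above all other arrays and the day 2 livers were within or near the day 0 range, a difference of -1.4 ± 0.13 (SE; 2.64-fold lower; adjusted p = 0.00259). Manf, a secreted ER stress protein, went from 5679 to 3092, 2786 and 3362 in WT and from 6834 to 2612, 3299 and 3659 in YAP KO (-1 ± 0.14; SE; adjusted p = 0.0111). Its day 2 level was 0.96 above day 0 in WT and 0.06 above it in YAP KO.

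Hsp90b1, the ER HSP90 called GRP94, fell by 0.69 (SE 0.1; adjusted p = 0.0148) and the calcium-binding chaperone Calr by 0.48 (SE 0.09; adjusted p = 0.0368). The 3 kept probe sets of Calr ranged from -0.48 to 0.16 and so differ in sign, and their mean of -0.07 was not called. Hspa5, the ER HSP70 known as BiP, also holds the motif and was at -0.41 ± 0.15 (SE; adjusted p = 0.189), short of a call. Creld2 kept its call without any 1 array. Manf lost it without the YAP KO pool (-0.88), Hsp90b1 without the WT pool (-0.56), and Calr with each array other than YAP KO day 2 replicate 1 left out, at -0.53 to -0.42. The list had 2 called members without either pool and 3 or 4 without any other array.

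The heat shock element was searched as GAANNTTC or TTCNNGAA on both strands. It is in the windows of 12.8% of the 11293 genes, 25% of the 56 that fell and 11.1% of the 126 that rose. Among the heat shock genes that fell, 5 have a window and 3 hold it: Hsph1, Dnaja1 and Hspe1. The windows of Hspe1 and Hsph1 are shown as the cases with the most matches and the largest fall. That of Hsph1 precedes a second RefSeq start, at base 149636336, and its main start has no match. The main start, base 149636498, lies inside the window shown. The marked match therefore lies between these starts, past the main start and not upstream of it.
Hspe1 at chr1:55087898-55088147, plus strand: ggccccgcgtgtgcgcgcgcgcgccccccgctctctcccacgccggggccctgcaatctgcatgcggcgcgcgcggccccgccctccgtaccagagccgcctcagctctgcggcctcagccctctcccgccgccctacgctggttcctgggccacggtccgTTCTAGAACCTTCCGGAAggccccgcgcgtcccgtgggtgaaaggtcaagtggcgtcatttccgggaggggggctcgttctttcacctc
Hsph1 at chr5:149636337-149636586, minus strand: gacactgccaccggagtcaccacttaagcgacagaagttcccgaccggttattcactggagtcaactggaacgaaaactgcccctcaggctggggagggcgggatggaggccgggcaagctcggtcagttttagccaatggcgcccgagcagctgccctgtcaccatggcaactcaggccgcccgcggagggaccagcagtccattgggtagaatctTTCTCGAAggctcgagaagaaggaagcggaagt

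The 3 matches of Hspe1 overlap and begin 89, 84 and 79 bases before the start, and the match of Hsph1 begins 33 bases before its second start.

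Most genes of ribosome production had lower values at day 2, with few calls. Of 46 tested genes 39 had a difference below 0, against 6678 of all 14102. Some other lists also leaned this way, with 26 of 32 translation initiation factors and 21 of 24 fatty acid synthesis genes below 0. Of the 46 ribosome genes 2 fell (4.35% against 0.546%) and none rose, at a median of -0.38. The median was -0.23 in WT and -0.56 in YAP KO. The list stood 0.5 above day 0 on the WT pool and 0.51 on the YAP KO pool, then 0.32 and -0.04 at day 2. Rrs1, a ribosome assembly factor, went from 1708 on the WT pool to 782, 899.6 and 729.9, with day 0 at 496 and 419. In YAP KO it went from 1982 to 598, 756 and 796, with day 0 at 881 and 1072. Both genotypes fell from their pool without overlap, and the YAP KO livers were below their day 0 level (-1.27 ± 0.16; SE; adjusted p = 0.00785). Npm1, the nucleolar chaperone nucleophosmin, fell by 0.82 (SE 0.13; adjusted p = 0.0198), and Srm, spermidine synthase, a gene outside the list, fell by 0.88 (SE 0.11; adjusted p = 0.00694). Nol12, a nucleolar protein also outside the list, fell from 1053 to 273, 445 and 653 in WT and from 1044 to 204, 142 and 167 in YAP KO (-1.89 ± 0.36; SE; adjusted p = 0.0342), a call lost without 6 of the 8 arrays at -2.52 to -1.26. With its 2 probe sets averaged Nol12 was at -1.13 and not called. Ncl, nucleolin, was at -0.43 ± 0.15 (SE; adjusted p = 0.174). Srm kept its call without any 1 array. Rrs1 lost it without the YAP KO pool (-1.08), and Npm1 without WT day 2 replicate 3 or either pool (-0.88 to -0.78 over all leave-outs). The list had 0 calls without the YAP KO pool, 1 without WT day 2 replicate 3 and 3 without the WT pool.

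Most DNA replication genes had lower values at day 2 than on the pools, with few calls. Of 26 tested genes of the replication fork and nucleotide supply 23 were below 0 and 2 fell (7.69% against 0.546%), at a median of -0.31. Of the 18 licensing and helicase genes 15 were below 0 and 0 were called, at a median of -0.38. Over all 14102 genes, 6678 were below 0 and 1.58% were called. Day 2 was above day 0 by limma for 13 of the 26 and 10 of the 18, against 7.93% of all genes, and below it for 0 and 1. Rrm2, the small subunit of ribonucleotide reductase, was at 464 and 518 in WT at day 0, 9572 on the pool and 5403, 4938 and 5418 at day 2. The YAP KO arrays read 353 and 418, then 4264, then 2955, 1679 and 2135. All day 2 arrays lay below their pool and well above day 0, and the difference was -0.91 ± 0.17 (SE; adjusted p = 0.0324). Relative to day 0 it remained 3.38 higher in WT and 2.47 higher in YAP KO. Prim1, a primase subunit, fell by 0.56 (SE 0.12; adjusted p = 0.0457). Both calls were easily lost: that of Prim1 with each of the 8 arrays left out in turn (-0.7 to -0.41), that of Rrm2 with each array other than YAP KO day 2 replicates 1 and 2 (-1.01 to -0.82). The list had 0 calls in 5 of the 8 leave-outs and 1 in the other 3.

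The sliding clamp Pcna went from 7942 on the WT pool to 6282, 6224 and 7240.5, and from 5871 on the YAP KO pool to 3244, 2803 and 2362. It was 0.27 lower in WT and 1.07 lower in YAP KO, and the common difference did not pass (-0.67 ± 0.18; SE; adjusted p = 0.0907). Mcm6, a subunit of the replicative helicase, went from 1916 to 1367, 1392 and 1720.1 in WT and from 1087 to 659, 811 and 79.7 in YAP KO (adjusted p = 0.552). One YAP KO liver, replicate 3, was far below the other two.

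No mitotic kinase, cyclin or anaphase-promoting complex gene passed the test, out of 23, where 1.58% of all genes did. At that share, 0 calls among 23 genes do not set the list apart. The median of these genes was -0.01, with 0.21 in WT alone and 0.02 in YAP KO alone. Cdk1, the mitotic kinase, was at 1739 on the WT pool and 2451, 2064 and 1984 at day 2. YAP KO arrays gave 932 and then 984, 533 and 752, so the arrays of the days overlapped there. Its difference was -0.01 ± 0.22 (SE) with a 95% interval of -0.51 to 0.48. For the proliferation marker Mki67 the interval was -0.59 to 0.3 around -0.15, and for topoisomerase Top2a -0.45 to 0.25 around -0.1. The other kept probe set of Top2a was at 0.66. Ccna2, cyclin A2, was at 0.61 ± 0.2 (SE; adjusted p = 0.165), with 0.94 in WT and 0.28 in YAP KO. Its interval was 0.16 to 1.06, and all 6 day 2 arrays lay above both pools. Its other kept probe set was at 0.19. In WT the Mki67 signals were 1045 and then 722, 1043 and 1072, and in YAP KO 396 and then 414, 313 and 363. Every YAP KO value was below every WT value of these days.

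Of the 39 spindle, kinetochore and cytokinesis genes, 1 rose and 0 fell (2.56% against 1.04%). That gene was Cdca3, a mitotic entry protein with a difference of 0.83 ± 0.16 (SE; adjusted p = 0.0365), and it lost the call in 6 of the 8 leave-outs, at 0.49 to 1.17. Its 3 probe sets ranged from -0.07 to 1.07, and their mean of 0.61 was not called. The kinetochore scaffold Knl1, not in the list, rose from 92.1 to 371, 262 and 614 in WT and from 99.7 to 554, 538 and 454 in YAP KO. It had been at 566 and 466 in WT and 470.0 and 479.7 in YAP KO at day 0, so this dim gene came back to day 0 (2.06 ± 0.33; SE; adjusted p = 0.0172, lost without YAP KO day 2 replicate 2 or the YAP KO pool at 1.92 to 2.19).

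Clock genes held the 2 largest called rises, Nr1d1 and Dbp. Of 17 tested genes 3 rose (17.6% against 1.04%) and none fell, at a list median of 0.05 (-0.07 with the probe sets of a gene averaged). Nr1d1, REV-ERB alpha, was at 2079 and 1871 in WT at day 0, 129.5 on the pool and 1554, 1665 and 1696 at day 2. In YAP KO it was at 616 and 1007, then 219, then 1167, 821 and 998. The pools were the lowest arrays of each genotype and the day 2 arrays lay near the day 0 range, a difference of 2.8 ± 0.27 (SE; 6.96-fold higher; adjusted p = 0.00259).

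Dbp is a clock output factor. In WT it was at 2587 and 4525 at day 0, 596 on the pool and 1726, 2645 and 3306 at day 2, a trough. Its YAP KO signals were 351 and 566, then 492, then 3408, 3596 and 3472, so the pool lay between the day 0 arrays and day 2 stood 2.92 above day 0. The rise over both genotypes was 2.41 ± 0.23 (SE; adjusted p = 0.00259). The YAP KO change minus the WT change was 0.76 ± 0.52 (SE; adjusted p = 0.612 by limma), which did not pass. Nr1d2, REV-ERB beta, rose by 1.17 (SE 0.17; adjusted p = 0.0129), 0.79 in WT and 1.56 in YAP KO. Nr1d1 and Dbp kept their calls without any 1 array, and Nr1d2 lost it without the YAP KO pool (0.79), which left 2 calls in the list.

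The rest of the list had no call and went both ways. Cry1 was at -2.12 ± 0.65 (SE; adjusted p = 0.134) and Nfil3 at -1.72 ± 0.58 (SE; adjusted p = 0.169), both repressors of the clock loop or its outputs. Arntl, the clock activator BMAL1, was at 0.04 ± 0.21 (SE; adjusted p = 0.952), Clock, its partner, at 1.27 ± 0.38 (SE; adjusted p = 0.129), Npas2, a stand-in for that partner, at 0.33 ± 0.95 (SE; adjusted p = 0.9) and Per2 at -0.16 ± 0.35 (SE; adjusted p = 0.863). These values are of the brightest probe set, and the others differed. The 2 kept probe sets of Arntl ranged from -1.65 to 0.04, the 4 of Clock from -0.59 to 1.27 and the 2 of Per2 from -1.25 to -0.16. The hour of harvest was not given, so hour and day cannot be told apart for the clock genes. The E-box CACGTG, the letters that clock activators are known to bind, is in the windows of 9.32% of the 11293 genes and in 0 of the 3 that rose here; no match says only that these letters are not in this window.

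**Figure D3:**
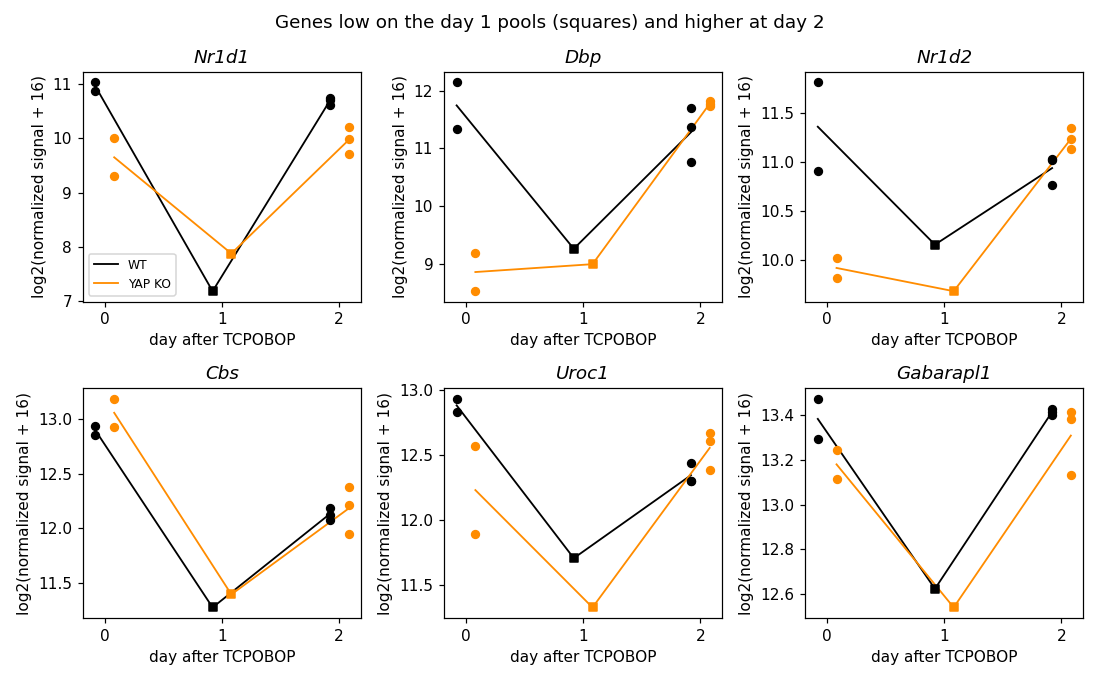
Normalized signals, as log2(signal + 16), of 6 genes that rose from day 1 to day 2, by day after TCPOBOP. Points are arrays, squares the day 1 pools, lines join means; WT is black and YAP KO orange. Nr1d1 and Gabarapl1 return to about their day 0 level, Cbs stays below it, and Dbp and Nr1d2 in YAP KO rise from a flat day 0 and day 1.

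A few genes of the resting hepatocyte's amino acid metabolism also rose. Of 21 tested periportal genes 3 rose (14.3% against 1.04%) and none fell, at a median of 0.05: the histidine-degrading enzymes Hal and Uroc1 and the cationic amino acid transporter Slc7a2. Uroc1 was at 7814 and 7264 in WT at day 0, 3319 on the pool and 5519, 5018 and 5023 at day 2. The YAP KO arrays read 6058 and 3777, then 2547, then 6233, 5317 and 6510.3, a common rise of 0.94 (SE 0.14; adjusted p = 0.0138). The day 2 values reached the day 0 range in YAP KO and not in WT. Hal rose by 0.71 (SE 0.15; adjusted p = 0.0448) and Slc7a2 by 0.75 (SE 0.13; adjusted p = 0.0214), the latter with 4 probe sets from -0.07 to 0.76. Without the YAP KO pool 0 of the list were called, and Uroc1, Hal and Slc7a2 were at 0.64, 0.41 and 0.59. Hal also lost its call without 5 of the 6 day 2 arrays and Slc7a2 without WT day 2 replicate 1. The list's median changed sign with the scaling: it was -0.07 without quantile normalization and -0.12 with array medians set equal. With probe sets averaged, or by limma without trend and robust, 0 members were called, and with array medians set equal 1 was. Day 2 was below day 0 by limma for 12 of the 21 and above it for 2.

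Cbs, Cdo1 and Ethe1, enzymes of sulphur amino acid breakdown named here after their values were seen and not from a list, also rose. Cbs, which makes cystathionine, was at 7801 and 7397 in WT at day 0, 2470.0 on the pool and 4454, 4657 and 4313 at day 2. YAP KO arrays gave 7763 and 9298, then 2683, then 3944, 5301 and 4747 (0.82 ± 0.12; SE; adjusted p = 0.0125). No day 2 array reached a day 0 array. Cdo1, cysteine dioxygenase, rose by 0.77 (SE 0.13; adjusted p = 0.0214) and was still 1.26 below day 0 in WT and 0.94 below it in YAP KO. Ethe1, a mitochondrial sulphur dioxygenase, rose by 0.88 (SE 0.09; adjusted p = 0.00363) to 0.7 above day 0 in WT and 0.23 above it in YAP KO, from -0.14 and -0.7 on the pools. Without the YAP KO pool Cbs lost its call (0.85), as did Cdo1 (0.48). Cdo1 also lost it without WT day 2 replicates 1 or 3 or YAP KO day 2 replicate 2 (0.48 to 1.07 over all leave-outs), while Ethe1 kept it without any 1 array.

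Other hepatocyte genes rose back from a low pool. Hsd3b7, a bile acid synthesis enzyme, rose by 0.65 (SE 0.1; adjusted p = 0.015) and Gabarapl1, an autophagy protein, by 0.78 (SE 0.09; adjusted p = 0.00694). Gabarapl1 was at 10012 and 11359 in WT at day 0, 6294 on the pool and 10898, 11000.5 and 10801 at day 2. Its YAP KO values were 9689 and 8853, then 5940.4, then 8949, 10663 and 10884, a full return in both. St6gal1, the sialyltransferase of liver glycoproteins, rose by 1 (SE 0.13; adjusted p = 0.00785). Depp1, a FOXO-regulated gene, rose by 1.63 (SE 0.18; adjusted p = 0.00586) and was still 2.21 below day 0 in WT and 1.66 below in YAP KO. The plot of rising genes shows these full and partial returns side by side. With its 2 probe sets averaged Gabarapl1 was at 0.45, still called. Gabarapl1, St6gal1 and Depp1 kept their calls without any 1 array, and Hsd3b7 lost it without the YAP KO pool (0.51).

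Many of the largest rises were in dim genes. Of the 43 genes that rose at least 2-fold, 23 had a day 1 mean under 8 on the log2 scale, while 1991 of all genes tested did. Among those 1991 the median change was 0.3 in WT and 0.37 in YAP KO, against -0.01 and 0.04 for all genes, though genes picked for a low day 1 value share that value with the change. Examples are the zinc finger gene Zfat (82.2 on the WT pool and 394, 362 and 538 at day 2) and the neuronal tubulin Tubb4a (85.0 on the YAP KO pool and 778, 846 and 789 at day 2). Their differences were 2.04 ± 0.29 (SE; adjusted p = 0.0117) and 2.29 ± 0.29 (SE; adjusted p = 0.00785), and both kept the call without any 1 array. Tubb4a was the only 1 of 9 tested tubulin genes to rise, and the list's median was -0.47. With genes kept only where both days averaged 9 or more, 303 genes were called, 182 higher and 121 lower, and 9 of the 26 troughs remained.

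Genes that moved on in the direction of day 1 were few. Pnliprp1, a pancreatic lipase related protein, was at 13.6 and 47.8 in WT at day 0, 472 on the pool and 1697, 1826 and 1213 at day 2. In YAP KO it was at 12.0 and 34.1, then 483, then 807, 965 and 853 (1.26 ± 0.22; SE; adjusted p = 0.0215). Every day 2 array was above its pool and both pools far above day 0. Gstm2, a glutathione transferase, rose further by 0.57 (SE 0.09; adjusted p = 0.0194) to 2.71 above day 0 in WT and 2.97 in YAP KO. Slc23a2, a vitamin C transporter, rose further by 0.53 (SE 0.1; adjusted p = 0.0342). Retsat, the retinol saturase, kept falling, from 6743 and 4229 to 2294 to 949.7, 892 and 1187 in WT and from 5918 and 4762 to 2562 to 1009.9, 1305 and 1668 in YAP KO (-1.08 ± 0.19; SE; adjusted p = 0.0219). These 4 calls each depended on single arrays. Pnliprp1 lost it without WT day 2 replicate 1, YAP KO day 2 replicate 2 or the WT pool (0.83 to 1.69). Gstm2 lost it without the YAP KO pool (0.53) and with array medians set equal (0.36), Slc23a2 with each array other than YAP KO day 2 replicate 3 left out (0.51 to 0.56), and Retsat without WT day 2 replicates 1 or 2, YAP KO day 2 replicate 2 or either pool (-1.18 to -0.97).

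Among genes outside the naming rule, chosen here after their values were seen, Acat1, the ketone and isoleucine enzyme, fell on both steps. It was at 16505 and 14152, then 8973, then 6185, 5516 and 5736 in WT and at 14229 and 13130.4, then 7406, then 4888, 4941 and 4774 in YAP KO. The 3 days did not overlap in either genotype (-0.62 ± 0.09; SE; adjusted p = 0.0111, kept without any 1 array). Pltp, the phospholipid transfer protein, fell by 1.54 (SE 0.27; adjusted p = 0.0219) and was 1.85 below day 0 in WT and 2.93 below it in YAP KO. It lost its call without WT day 2 replicate 2 or the YAP KO pool (-1.93 to -1.16).

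Some called genes were near day 0 on both pools. With the size limit dropped, a choice made after the data were seen, 28 of the 146 genes that rose had both pools within 0.5 of day 0, as did 5 of the 77 that fell: 19.2% and 6.49%, against 46.4% of all genes. Of the 28, 9 were within 0.5 of day 0 at day 2 as well, and 19 were above day 0 by limma. Gm2a, the lysosomal ganglioside activator, was at 3819.7 and 4252 in WT at day 0, 3781 on the pool and 7774, 8397 and 7725 at day 2. Its YAP KO signals were 3614 and 2966, then 3817, then 6289.8, 5409 and 6519.7. All 6 day 2 arrays were above all 6 earlier ones, and the rise was 0.87 (SE 0.12; adjusted p = 0.0101). Creg1, a secreted lysosomal glycoprotein, rose by 0.5 (SE 0.07; adjusted p = 0.0125) and Mpp1, a membrane scaffold, by 0.76 (SE 0.09; adjusted p = 0.00694). Gm2a, Creg1 and Mpp1 kept their calls without any 1 array. Creg1 lost its call without quantile normalization (0.35), with array medians set equal (0.3), with its probe sets averaged (0.41) and in the fit of 6 group means (0.5), and Mpp1 with its probe sets averaged (0.52). With array medians set equal Gm2a and Mpp1 were not called either.

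A gene of the ATF4 stress response was among those 28. Trib3, a pseudokinase induced in that response, rose by 0.97 (SE 0.17; adjusted p = 0.023), 0.68 in WT and 1.27 in YAP KO. It was the only 1 of 19 tested integrated stress response genes to rise (5.26% against 1.04%). Gtpbp2, a ribosome rescue GTPase, rose by 1.08 (SE 0.16; adjusted p = 0.015), though its 4 probe sets ranged from -0.09 to 1.08. Trib3 lost its call without WT day 2 replicate 1, YAP KO day 2 replicates 2 or 3 or the YAP KO pool (0.68 to 1.27), and Gtpbp2 without the YAP KO pool (0.8). The proteasome subunits Psmd8 (0.47) and Psmd11 (0.56) rose, 2 of 33 tested (6.06% against 1.04%), and both calls were lost in 6 or more of the 8 leave-outs. The 6 probe sets of Psmd11 ranged from -1.04 to 0.56 and their mean was -0.05. The 5 that fell with both pools near day 0 included Hamp, the iron hormone hepcidin, at -0.82 ± 0.12 (SE; adjusted p = 0.0148), and Insig1, a brake on sterol synthesis, at -0.57 ± 0.11 (SE; adjusted p = 0.0329). Hamp lost its call without the YAP KO pool (-0.79) and Insig1 without 6 of the 8 arrays (-0.6 to -0.52).

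In both genotypes at once, 21 of 26 CAR target and phase I genes were within 0.5 of the day 1 pool (80.8% against 53% of all genes). So were 19 of 28 phase II and transporter genes (67.9%). Some lists of other kinds had similar shares: 78.8% of proteasome subunits, 77.8% of hepatocyte identity genes and 75% of translation initiation factors. These shares are a description with no test. Cyp2b10 was at 1585 and 1771 in WT at day 0, 45215 on the pool and 45215, 43302 and 44331 at day 2. The YAP KO arrays read 1749 and 1930.0, then 42371, then 50678, 47693 and 44588. The day 1 and day 2 arrays overlapped in WT and the difference was 0.07 ± 0.07 (SE), with a 95% interval of -0.09 to 0.23. For Cyp2c55 the interval was -0.01 to 0.29, for Ces2a -0.01 to 0.24 and for Cyp3a11 -0.19 to 0.14. The signals of Cyp2b10, Ces2a and Cyp3a11 lie near the top of the array range. Whether this made their differences smaller was not tested. Cyp3a44, another CYP3A enzyme, was at -1.11 ± 0.25 (SE; adjusted p = 0.0582), short of a call, with -1.12 in WT and -1.1 in YAP KO. Probes of the Cyp2c, Cyp3a, Ces and Gstm families can share signal between near-identical members.

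Of 26 tested CAR target and phase I genes, 2 fell (7.69% against 0.546%) and none rose. Alas1, the first enzyme of heme synthesis, was at 8266 and 6546 in WT at day 0, 23451 on the pool and 14269.5, 16239 and 15315 at day 2. Its YAP KO values were 3347 and 5119, then 30149.5, then 15222, 19209 and 19422 (-0.69 ± 0.1; SE; adjusted p = 0.0149). All day 2 arrays were between day 0 and the pool. Ces1d, a carboxylesterase, fell by 0.43 (SE 0.07; adjusted p = 0.0217), and by 1 with its 3 probe sets averaged. Of 28 phase II and transporter genes, 2 rose (7.14% against 1.04%), Gstm2 and Gstm4, and 2 fell (7.14% against 0.546%), Gsta3 and Abcg2. Gsta3, a glutathione transferase, went from 27259 to 17401, 15113 and 16050.4 in WT and from 26025 to 16050.4, 16457 and 16457 in YAP KO (-0.71 ± 0.08; SE; adjusted p = 0.00387, kept without any 1 array). Alas1 lost its call without the YAP KO pool (-0.62). Ces1d, Gstm4 and Abcg2 lost theirs in 5, 6 and 8 of the 8 leave-outs, at -0.45 to -0.41, 0.62 to 0.75 and -0.62 to -0.53. The receptor itself, Nr1i3, was at -0.41 ± 0.12 (SE; adjusted p = 0.118).

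**Figure D4:**
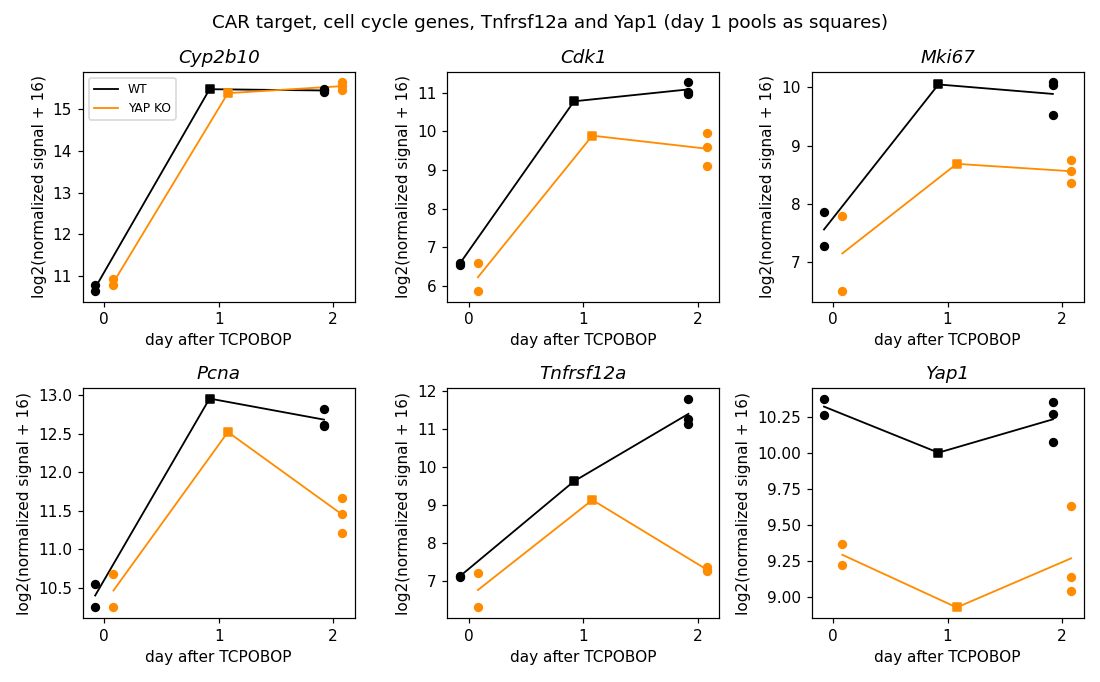
Normalized signals, as log2(signal + 16), of Cyp2b10, Cdk1, Mki67, Pcna, Tnfrsf12a and Yap1 by day after TCPOBOP. Points are arrays, squares the day 1 pools, lines join means; WT is black and YAP KO orange. Cyp2b10 is level from day 1 to day 2 in both genotypes, Tnfrsf12a goes up in WT and down in YAP KO, and Yap1 stays lower in YAP KO.

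The change from day 1 to day 2 differed between the genotypes for 16 genes (0.113% of those tested), 11 with the higher change in YAP KO (0.078%) and 5 with the lower (0.0355%). An unadjusted p under 0.05 was reached by 1653 genes. The fit used the 6 group means of the 12 arrays and assumed that each lone pool varies like the other groups. It called 0 genes without WT day 2 replicate 3 and 1 without YAP KO day 2 replicate 3. On simulated data this test recovered 0.5% of 200 planted 2-fold differences and 41.5% of 200 planted 4-fold ones. Few calls therefore do not show that the genotypes changed alike.

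Tnfrsf12a, the receptor Fn14 for the growth cytokine TWEAK, was among the 5. It was at 124 and 124 in WT at day 0, 779.9 on the pool and 2470.0, 3579.9 and 2237 at day 2. YAP KO arrays gave 134 and 63.7, then 550.0, then 150.3, 138 and 141. The WT livers were all above their pool and the YAP KO livers all below theirs, close to day 0. The YAP KO change minus the WT change was -3.6 ± 0.56 (SE; adjusted p = 0.0416). Its other kept probe set had a common difference of 1.32 where this one had -0.03.

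Mbl2, the mannose-binding lectin, split the other way. It was at 23451 and 20742 in WT at day 0, 14559 on the pool and 6084, 6878 and 6078 at day 2. In YAP KO it was at 20111 and 25198, then 16675, then 24545, 24413 and 25198. WT livers were below their pool and YAP KO livers back at day 0, a difference in change of 1.77 ± 0.2 (SE; adjusted p = 0.0195). Psmb7, a proteasome subunit, went from 4770.2 to 12109, 12706 and 12167 in WT and from 5038 to 4459, 4825 and 5072 in YAP KO, a difference in change of -1.44 ± 0.19 (SE; adjusted p = 0.0195).

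Of 19 tested YAP/TAZ target genes 0 rose or fell, against 1.58% of all genes, at a median of -0.11. At that share, 0 calls among 19 genes do not set the list apart. For Ccn1 the difference was 0.55 ± 0.31 (SE; adjusted p = 0.403) and for Ccn2 -0.86 ± 0.37 (SE; adjusted p = 0.278). Both are matricellular proteins widely used as YAP readouts. The 4 kept probe sets of Ccn1 ranged from -0.59 to 0.55 and so differ in sign.

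Markers of other liver cells were measured beside these changes. In whole liver, fewer cells of a type and less RNA per cell cannot be told apart. Of 19 Kupffer cell and macrophage markers 1 fell (5.26% against 0.546%) and none rose, at a median of -0.16. That gene was C1qb, a complement subunit, at 1922 on the WT pool and 914, 795 and 870.2 at day 2, and at 1859.7 and then 635, 477 and 513 in YAP KO (-1.45 ± 0.18; SE; adjusted p = 0.00694, kept without any 1 array). Its 3 probe sets ranged from -1.45 to -0.22, and their mean of -0.91 was not called. Its partners C1qa (-0.42 ± 0.68; SE) and C1qc (0.11 ± 0.19; SE) and the Kupffer marker Clec4f (-0.47 ± 0.18; SE) were not called.

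The summed signal of the 19 markers was 25253 on the WT pool against 24001 to 25976 at day 2, and 22071 on the YAP KO pool against 18592 to 25588. Of 20 sinusoidal endothelial and 16 stellate cell and matrix markers, 0 were called, against 1.58% of all genes. The endothelial sum was 18611 on the WT pool against 15329 to 16369 at day 2, and 19550 on the YAP KO pool against 17614 to 21400. The stellate sum was 18528 on the WT pool against 15951 to 16865, and 19943 on the YAP KO pool against 18127 to 19857. Of 11 lymphocyte, 9 neutrophil, 3 cholangiocyte and 3 erythroid markers 0 were called, and no marker was at 0 on any of the 8 arrays. The lymphocyte sum was 6521 and 6353 on the pools and 7364 to 8895 over the day 2 livers of both genotypes. Its part in the rises of dim genes was not tested. Of 18 hepatocyte identity genes 0 were called, at a median of -0.05. With 1.58% called over all genes, 0 calls in marker lists of these sizes do not set them apart.

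**Figure D5:**
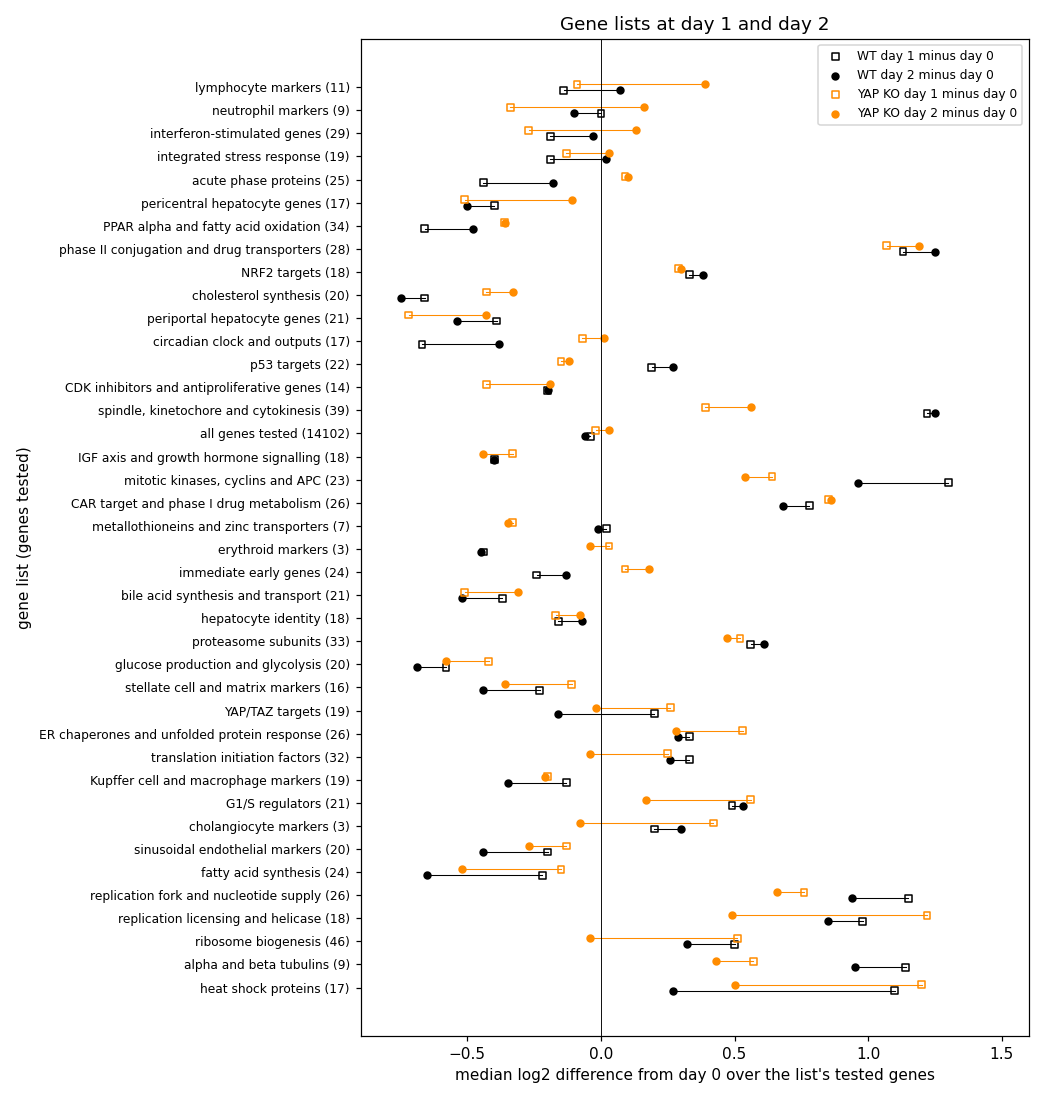
Median log2 difference from day 0 over the tested genes of each list, at day 1 (open squares) and day 2 (filled circles), for WT (black) and YAP KO (orange), with lists ordered by their day 2 minus day 1 median. Heat shock proteins go from 1.1 to 0.27 in WT and from 1.2 to 0.5 in YAP KO, and ribosome biogenesis in YAP KO goes from 0.51 to -0.04, while CAR target and phase II lists stay near their day 1 values.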

How the data were processed

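RNA of 12 mouse livers or pools was measured on single-colour Affymetrix arrays. The deposited values are signal intensities that the authors made with MAS5, per the submitters' processing notes, with the version not given in the sources used here. In the deposited table each array has the same trimmed mean. Of 45101 probe sets, 34945 had 1 gene symbol in the platform annotation, 932 several, 9160 none and 64 were controls; only the first were named. Intensities were used as log2(signal + 16) after quantile normalization across the 12 arrays. Probe sets were kept when brighter than the median probe set on 2 or more of the 12 arrays, with the brightest per gene, leaving 14102 of 18193 genes. Array signals carry no counts, and the number of arrays limits the precision.

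Day 2 was compared with day 1 in limma 3.58.1 (R 4.3.3; lmFit and eBayes with trend and robust), with day and genotype as terms on 8 arrays and 5 residual degrees of freedom. Day 2 against day 0, and the difference between genotypes in the change, came from the means of the 6 groups on 12 arrays, with 6 residual degrees of freedom. Adjusted p-values are Benjamini-Hochberg over all genes, for every adjusted p printed. Scaling, pseudocount, filter, probe set rule, model and single arrays were varied. The scripts were tested on simulated data. The genes to name were 16 panel genes, the largest called differences in each direction and class, and up to 4 called members of each of 39 lists; genes named beyond that rule (such as Dnaja1, Ahsa1, Srm, Cbs, Cdo1, Ethe1, Gabarapl1, St6gal1, Depp1, Acat1, Gm2a, Creg1, Mpp1, Gtpbp2 and those not called) were chosen after their values were seen. The members and lists were chosen with earlier results of these data known. Promoter windows are from RefSeq (GRCm38.p6), matched by symbol.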

Additional observations from a re-analysis of the deposited data

Results flagged for a closer look

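The change from day 1 to day 2 differed between YAP KO and WT, by the test of the difference itself in limma, for 16 genes. In YAP KO the change was higher by 4.16 for Map3k9, 3.09 for A330009N23Rik, 3.07 for Sox6, 2.92 for Il1f9, 2.88 for Akr1cl and 2.83 for 6530409C15Rik. It was higher by 2.71 for Khsrp, 2.51 for Fbxl20, 2.26 for Elavl2, 2.19 for Cdkl4 and 1.77 for Mbl2. It was lower for Tnfrsf12a (-3.6), Recql4 (-2.76), Cplx3 (-2.44), Sltm (-2.15) and Psmb7 (-1.44). Each difference is on the log2 scale.

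Many of these rest on a single low pool. Map3k9 had a normalized signal of 14.1 on the YAP KO pool and 260.4 to 506.5 on the other 11 arrays. Sox6 was at 91.3 on the YAP KO pool and 386 to 803 elsewhere, and Il1f9 at 47.9 and 382 to 651. Recql4 was at 92.7 on the WT pool and 416 to 782 elsewhere, and Cplx3 at 72.9 and 348 to 548. Cdkl4 was at 899 to 936 in WT at day 2 and 2143 to 3013 in YAP KO, where its pool was at 1142.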

How the results depend on the processing

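The 223 genes called between day 2 and day 1 became 85 with array medians set equal, 139 with no filter on dim probe sets, 119 with the probe sets of a gene averaged and 12 by limma without trend and robust. They became 359 in the fit of 6 group means over 12 arrays (171 shared with the 223), 54 with day alone in the model, 24 at an adjusted p under 0.01 and 61 with a 2-fold limit. Leaving out 1 array gave 85 to 382. The 16 genotype differences became 28 with array medians set equal, 10 at a pseudocount of 64, 8 with no filter, 9 with probe sets averaged, 5 by limma without trend and robust, 6 with both days at a mean of 9 or more (added after the data were seen) and 0 to 19 with 1 array left out. With the replicate number as a replicate block, 1 genotype difference was called. Same-numbered livers of the genotypes had deviations that correlated at 0 to 0.03 at day 2 and -0.03 at day 0. Those with different numbers correlated at -0.06 to 0.03 at day 2 and 0.03 at day 0. Deviations from the mean of 2 or 3 arrays constrain one another, so these values cannot decide whether the numbers pair the samples. No paired analysis was possible for day 2 against day 1 because the pools carry no replicate numbers.

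Peaks at day 1 were 5 by limma without trend and robust, 45 with a day 1 change of 0.5 and 14 to 26 with 1 array left out. Troughs were 14 with array medians set equal, 3 without trend and robust, 68 with a day 1 change of 0.5, 9 with both days at 9 or more and 14 to 31 with 1 array left out. Late rises were 1 with probe sets averaged and 3 with day 1 within 1 of day 0. With probe sets averaged the sign turned for Aspm (-0.12), Nqo2 (-0.07), Psmd11 (-0.05) and for the genotype difference of Khsrp (-0.32), and Eif3i was at 0. Mbl2 was at 0.57 without the WT pool and -1.2 without the YAP KO pool, and Tnfrsf12a at -1.83 and 1.77, where the pool that is left sets the day difference. The cause of the other shifts was not tested. Of 95 called genes examined singly, 45 kept the call without any 1 day 2 array and 6 under each alternative fitted for them at an adjusted p under 0.05: Chordc1, Creld2, Dbp, Hsph1, Nr1d1 and Zfat. At 0.01 Zfat was not called, and Nr1d1 and Zfat were too dim for the limit of 9. Every difference between day 2 and day 1 rests on the 2 pools.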
